A study of Mus musculus with 12 samples.

Results

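Transcripts of 9 complement genes were followed in microglia of the adult and the aged mouse central nervous system (CNS). The genes were taken by name from the 770 genes of the NanoString nCounter Neuroinflammation panel, and all 9 were found: *C1qa*, *C1qb* and *C1qc*, *C3*, *C4a* and *C6*, and the receptor genes *C3ar1*, *C5ar1* and *Itgam*. The panel counts each transcript with a labelled probe, without amplification. Each sample held sorted microglia pooled from 2 mice, one of each sex. The labels give the strain as C57B6, the age as 12 to 20 weeks in adult mice and above 80 weeks in aged mice, and the treatment as none. The study's methods describe mice with a Cre recombinase and an eYFP reporter under the *Cx3cr1* promoter, in which tamoxifen was given when the animals were young, shortly before sampling for adult mice and long before it for aged mice. The labels do not mention tamoxifen, and the *Ulk1* genotype, which the study varied elsewhere, is not stated for these samples. CD11b beads were used first, and the fixed cells were then sorted as YFP-positive, CD45 intermediate and Ly6G-negative. Cells of aged mice were further divided by phosphorylation of the kinases ERK1 and ERK2 into P-ERK1/2 High (samples 2, 5, 7 and 8) and P-ERK1/2 Low (samples 3, 6, 9 and 12). Adult cells (samples 1, 4 and 10, and sample 11) were not divided by P-ERK1/2. The labels mark adult sample 11 as excluded for poor quality, and it was left out of the comparisons, which leaves 11 samples. The study's own text counts it among the adult samples and states no exclusion, so values with it included are given for the main results that change and in the closing section.

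Complement is a cascade of plasma and tissue proteins that tags targets for uptake and recruits phagocytes. C1q, built of A, B and C chains, starts the classical pathway on bound antibody, dying cells or synapses, and C4 and C3 are cleaved downstream of it, while C6 belongs to the membrane attack complex. The fragments C3a and C5a act on the G protein-coupled receptors C3aR and C5aR1, and surface-bound C3 fragments are taken up through complement receptor 3, whose alpha chain CD11b is encoded by *Itgam*. Microglia are the main source of C1q in the brain, and C1q, C3 and complement receptor 3 are known for their part in the removal of synapses by microglia.

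Depth differed between the groups. For P-ERK1/2 High the counts of the panel summed to 650965 to 1539936, for P-ERK1/2 Low to 123798 to 157209 and for adult microglia to 137980 to 326575. Genes counted as above background where they exceeded the mean plus 2 SD of the 8 negative control probes of that sample, which was met by 589 to 673 genes for P-ERK1/2 High, 410 to 484 for P-ERK1/2 Low and 417 to 560 for adult. Adult sample 11 stood apart, with a summed count of 1464433 and values of *C3ar1* and *Itgam* above those of every other sample. Values below are the deposited normalized values, in which 13 housekeeping genes have the same geometric mean in every sample, and they carry no unit beyond that. Not all of the 13 were steady: *Supt7l* had a mean of 792 in P-ERK1/2 High against 77.5 in Low, and *Lars* 139 against 310. *Supt7l* was the least stable, with a mean SD of its log2 ratios to the others of 1.82, against 0.957 for the next. The 6 most stable housekeeping genes, used below as an alternative scaling, leave both out. Of the microglial markers, *Csf1r*, the receptor of CSF1, was above background in all 11 samples, while the purinergic receptor gene *P2ry12* was above background in 4 of 4 P-ERK1/2 High, 0 of 4 P-ERK1/2 Low and 2 of 3 adult samples. In sorted cells measured in bulk, a smaller share of cells that express a gene and less RNA per cell cannot be told apart.

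The 9 genes fell into 6 that were above background in all 11 samples (*C1qa*, *C1qb*, *C1qc*, *C3ar1*, *C5ar1* and *Itgam*), *C3* in 6 of 11, *C4a* in 1 of 11 and *C6* in 0 of 11. Calls required an unadjusted p under 0.01 in limma and a log2 change of more than 1 in either direction, the thresholds of the study. The adjusted p-values printed beside the changes are Benjamini-Hochberg values over all 770 genes and did not decide the calls. Between P-ERK1/2 High and Low microglia, 1 of the 9 complement genes was called higher (*Itgam*) and 1 lower (*C5ar1*), against 37.8% of all genes called, 28.2% higher and 9.61% lower. From adult to P-ERK1/2 Low, 1 of 9 was called higher (*C5ar1*), against 10.8% of all genes called, 8.05% higher and 2.73% lower. From adult to P-ERK1/2 High, 2 of 9 were called higher (*C3ar1* and *Itgam*), against 36.9% of all genes called, 29.2% higher and 7.66% lower. The share of complement genes called was thus near or below that of the whole panel in each comparison. The 3 comparisons share samples, so their counts are not independent.

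The groups were also compared by overlap of their values, whether or not a gene passed these thresholds. Between P-ERK1/2 High and Low the values of 2 of the 9 genes (*C1qc* and *Itgam*) were higher without overlap and those of 1 (*C5ar1*) lower, against 49.4% of all genes without overlap, 31.3% higher and 18.1% lower. From adult to P-ERK1/2 Low, 3 (*C1qb*, *C3ar1* and *C5ar1*) were higher without overlap and 1 (*C1qa*) lower, against 36.5% of all genes, 26.1% higher and 10.4% lower. From adult to P-ERK1/2 High, 4 (*C1qb*, *C1qc*, *C3ar1* and *Itgam*) were higher without overlap, against 50.3% of all genes, 35.1% higher and 15.2% lower.

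**Figure D1:**
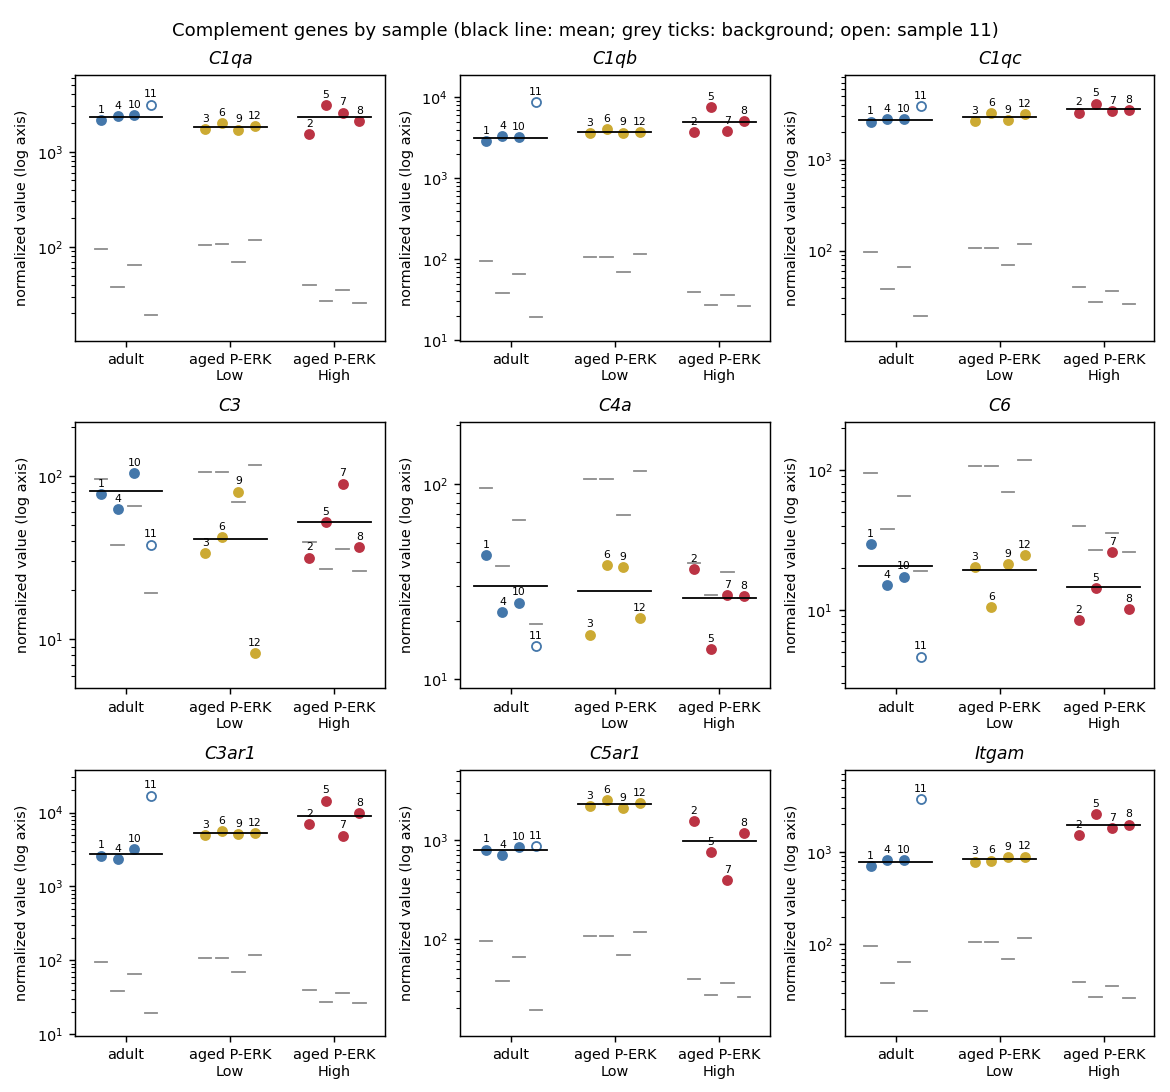
Deposited normalized value (log axis, no unit) of each complement gene in each sample, by group, with sample numbers; black lines are group means, grey ticks the background of each sample, and the open circle is adult sample 11, which is not in the mean. *C5ar1* is highest in the 4 P-ERK1/2 Low samples and *Itgam* in the 4 P-ERK1/2 High samples among the samples compared, and *C4a* and *C6* lie at or below background in nearly every sample.

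The recognition molecule C1q was well above background in every sample. *C1qa*, the A chain, had 1542, 3065, 2576 and 2107 in P-ERK1/2 High samples 2, 5, 7 and 8, 1725, 1984, 1707 and 1842 in P-ERK1/2 Low samples 3, 6, 9 and 12, and 2160, 2379 and 2407 in adult samples 1, 4 and 10. The 4 P-ERK1/2 Low samples lay below all adult samples, while the P-ERK1/2 High samples spanned both groups. The log2 fold change of *C1qa* from adult to P-ERK1/2 Low was -0.35 ± 0.13 (SE; limma, adjusted p = 0.088), which did not pass the threshold. *C1qb*, the B chain, had 2859, 3340 and 3227 in adult, 3595, 4018, 3676 and 3696 in P-ERK1/2 Low and 3691, 7526, 3826 and 5055 in P-ERK1/2 High. All aged samples were above adult samples 1, 4 and 10 for *C1qb*, with log2 fold changes of 0.26 ± 0.13 in P-ERK1/2 Low (limma, adjusted p = 0.19) and 0.62 ± 0.29 in P-ERK1/2 High (limma, adjusted p = 0.11), neither of which passed. The change in P-ERK1/2 High was called with the 6 most stable housekeeping genes (1.17, limma adjusted p = 0.010) and with the positive controls alone (1.79, limma adjusted p = 0.0012). Adult sample 11 had 8836 for *C1qb*, above every aged sample, and with it included the log2 fold changes were -0.12 for P-ERK1/2 Low and 0.25 for P-ERK1/2 High. *C1qc*, the C chain, had 2611, 2795 and 2765 in adult, 2629, 3250, 2713 and 3163 in P-ERK1/2 Low and 3272, 4105, 3379 and 3501 in P-ERK1/2 High. Each P-ERK1/2 High sample exceeded every P-ERK1/2 Low sample and adult samples 1, 4 and 10 in *C1qc* (adult sample 11 had 3887), but the log2 fold changes were 0.28 ± 0.20 against P-ERK1/2 Low (limma, adjusted p = 0.26) and 0.38 ± 0.23 against adult (limma, adjusted p = 0.18).

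The C1q chains did not keep one proportion to each other. Within a sample, the ratio of *C1qb* to *C1qa* was 1.32, 1.40 and 1.34 in adult samples 1, 4 and 10, 2.08, 2.02, 2.15 and 2.01 in P-ERK1/2 Low samples 3, 6, 9 and 12, and 2.39, 2.46, 1.49 and 2.40 in P-ERK1/2 High samples 2, 5, 7 and 8. Every aged sample had a higher ratio than these adult samples, P-ERK1/2 High sample 7 lay nearest to them, and adult sample 11, left out, had 2.82. On average the ratio was 1.52 times as high in P-ERK1/2 Low as in adult and 1.58 times as high in P-ERK1/2 High as in adult. The ratio of *C1qc* to *C1qa* was likewise lowest in adult (1.15 to 1.21), with overlapping values for P-ERK1/2 Low (1.52 to 1.72) and P-ERK1/2 High (1.31 to 2.12). Such ratios are the same under any scaling by one factor per sample, and each probe has its own efficiency, so only their change between samples can be read. Ratios that separate groups were themselves frequent: of 63190 pairs of genes above background in all samples, 53.3% had ratios that did not overlap between P-ERK1/2 Low and adult, 64.0% between P-ERK1/2 High and adult and 63.2% between P-ERK1/2 High and Low.

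As a share of the summed signal of the panel, *C1qa*, *C1qb* and *C1qc* together made up 2.36% ± 0.11 (SD, n = 3) in adult, 1.88% ± 0.13 (SD, n = 4) in P-ERK1/2 Low and 1.17% ± 0.20 (SD, n = 4) in P-ERK1/2 High. The 3 groups did not overlap in this share, at 2.24% to 2.46%, 1.71% to 2.02% and 0.972% to 1.34%. Adult sample 11, left out, had 1.40%, below every P-ERK1/2 Low sample, and with it the adult mean was 2.12%. The order is opposite to that of the housekeeping-scaled *C1qc* values, since the summed signal after housekeeping scaling was itself larger in P-ERK1/2 High. The most abundant gene there was *Vim*, encoding the intermediate filament vimentin, with 14.1% to 23.9% of the summed signal.

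**Figure D2:**
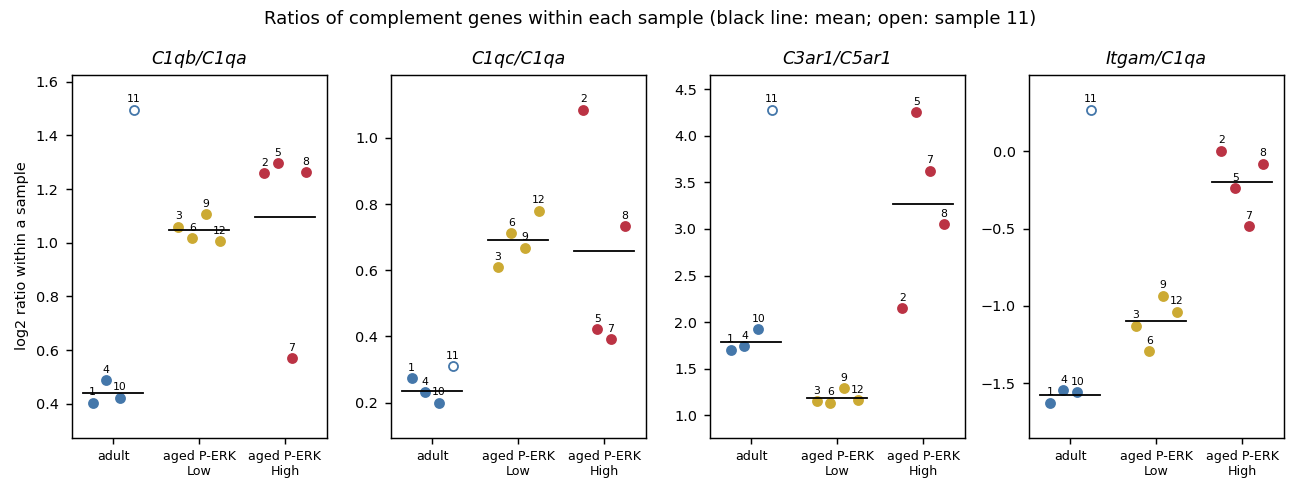
Log2 ratio of complement genes within each sample, by group, with sample numbers; black lines are group means and the open circle is adult sample 11, which is not in the mean. *C1qb*/*C1qa* and *C1qc*/*C1qa* separate the aged samples from adult samples 1, 4 and 10, *C3ar1*/*C5ar1* separates all 3 groups, with P-ERK1/2 Low lowest, and *Itgam*/*C1qa* is lowest in adult and highest in P-ERK1/2 High.

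The genes of the downstream components were near the limit of the assay. *C3*, whose protein is the point where the complement pathways meet, had counts of 26, 73, 80 and 29 in P-ERK1/2 High samples 2, 5, 7 and 8, of 10, 12, 30 and 2 in P-ERK1/2 Low samples 3, 6, 9 and 12, and of 34, 54 and 42 in adult samples 1, 4 and 10. It was above background in 3 of 4, 1 of 4 and 2 of 3 samples, respectively. The normalized mean of *C3* was 81.3 ± 20.8 (SD, n = 3) for adult, 41.1 ± 29.8 (SD, n = 4) for P-ERK1/2 Low and 52.6 ± 26.3 (SD, n = 4) for P-ERK1/2 High, and none of the 3 comparisons passed the threshold (limma, adjusted p = 0.38, 0.18 and 0.13 for P-ERK1/2 High against Low, Low against adult and High against adult). *C4a*, a gene of the C4 locus, was above background only in P-ERK1/2 High sample 8, at a count of 21. RefSeq lists mouse *C4a* as a transcribed pseudogene with *C4b* as a synonym, and the probe may also bind the near-identical *C4b* transcript, so the identity of this signal is uncertain. *C6*, of the membrane attack complex, had counts of 3 to 23 and was not above background in any of the 11 samples. No fold is given for *C4a* and *C6*, and a difference between the groups was not detectable for them at this depth.

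The receptor genes carried the calls among the complement genes. *C3ar1*, encoding the receptor of the anaphylatoxin C3a, had 2611, 2370 and 3224 in adult samples 1, 4 and 10, 4906, 5585, 5142 and 5325 in P-ERK1/2 Low samples 3, 6, 9 and 12, and 6932, 14524, 4863 and 9822 in P-ERK1/2 High samples 2, 5, 7 and 8. All 8 aged samples lay above these adult samples, though below adult sample 11 (16981), and P-ERK1/2 High sample 7 lay just below the lowest P-ERK1/2 Low sample. *C3ar1* rose 3.07-fold from adult to P-ERK1/2 High (log2 fold change 1.62 ± 0.36, limma adjusted p = 0.0043). This call was lost with quantile normalization (0.64), with scaling to the same summed signal (0.20) and with adult sample 11 included (0.96, limma adjusted p = 0.39). The change from adult to P-ERK1/2 Low was 1.93-fold (log2 fold change 0.95 ± 0.15, limma adjusted p = 0.0040), which passed on p and fell short of the fold limit. With adult sample 11 included it was 0.29 (limma, adjusted p = 0.82), and with a spread shared by all 11 samples the adjusted p was 0.067. Between P-ERK1/2 High and Low, *C3ar1* differed by a log2 fold change of 0.67 ± 0.31 (limma, adjusted p = 0.087), not past the threshold. The spread was wide in P-ERK1/2 High, where the highest sample had 2.99 times the lowest, against 1.14 times in P-ERK1/2 Low and 1.36 times in adult.

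*C5ar1*, encoding the C5a receptor that draws and activates phagocytes, showed another pattern. It had 801, 709 and 850 in adult samples 1, 4 and 10, 2206, 2538, 2103 and 2371 in P-ERK1/2 Low samples 3, 6, 9 and 12, and 1565, 762, 394 and 1185 in P-ERK1/2 High samples 2, 5, 7 and 8. The P-ERK1/2 Low samples stood above all others without overlap, while the P-ERK1/2 High samples lay on both sides of the adult samples. *C5ar1* rose 2.93-fold from adult to P-ERK1/2 Low (log2 fold change 1.55 ± 0.14, limma adjusted p = 0.00049) and was 2.66-fold lower in P-ERK1/2 High than in P-ERK1/2 Low (log2 fold change -1.41 ± 0.37, limma adjusted p = 0.0067). The rise from adult to P-ERK1/2 Low was not called when the positive control probes alone set the scaling (0.73, limma adjusted p = 0.10), and it was called with adult sample 11 included (1.51, limma adjusted p = 0.023). By size of increase it ranked 18 of 770 genes from adult to P-ERK1/2 Low, and by size of decrease 19 of 770 from P-ERK1/2 Low to High. P-ERK1/2 High and adult gave a log2 fold change of 0.14 ± 0.42 (limma, adjusted p = 0.80). The lower level in P-ERK1/2 High than in Low was not called without P-ERK1/2 High sample 5 (-1.35, limma adjusted p = 0.024) or with the 6 most stable housekeeping genes (-0.87). Nor was it called after background subtraction, where the log2 fold change stayed at -1.41 and the adjusted p in limma was 0.036. With scaling by the positive control probes alone, the log2 fold change of *C5ar1* turned to 0.58. That scaling leaves the difference in summed counts in place and moved the median of all genes to 2.14.

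*Itgam*, encoding the integrin chain CD11b of complement receptor 3, had 701, 815 and 818 in adult samples 1, 4 and 10, 789, 810, 894 and 898 in P-ERK1/2 Low samples 3, 6, 9 and 12, and 1546, 2594, 1839 and 1993 in P-ERK1/2 High samples 2, 5, 7 and 8. Every P-ERK1/2 High sample exceeded every P-ERK1/2 Low sample and adult samples 1, 4 and 10, and P-ERK1/2 Low overlapped adult. It was 2.31-fold higher in P-ERK1/2 High than in P-ERK1/2 Low (log2 fold change 1.21 ± 0.22, limma adjusted p = 0.00085) and 2.52-fold higher than in adult (1.33 ± 0.26, limma adjusted p = 0.0018), while P-ERK1/2 Low and adult gave 0.13 ± 0.14 (limma, adjusted p = 0.54). CD11b was also the protein on which all cells were enriched by beads. The call between P-ERK1/2 High and Low was lost with median-of-ratios scaling (0.94), quantile normalization (0.61) and scaling to the same summed signal (0.18), all in the same direction. Against adult, it was lost with median-of-ratios scaling (0.94), quantile normalization (0.27) and adult sample 11 included (0.76, limma adjusted p = 0.40), and scaling to the same summed signal gave -0.081.

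**Figure D3:**
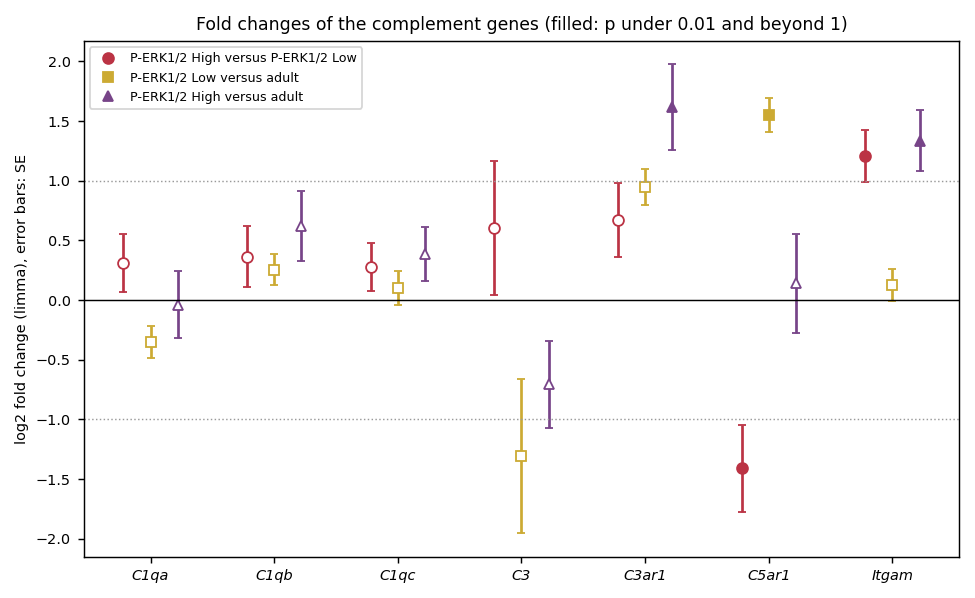
Log2 fold change (limma, error bars are the SE) of the 7 complement genes above background in at least 6 of 11 samples, in the 3 comparisons; filled symbols passed the thresholds, of which the fold limit is marked by dotted lines. *C5ar1* lies at 1.55 from adult to P-ERK1/2 Low and at -1.41 from P-ERK1/2 Low to High, while *C3ar1* lies above 0 in all 3 comparisons.

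The anaphylatoxin receptors therefore differed in their proportion to each other. The ratio of *C3ar1* to *C5ar1* within a sample was 3.26, 3.34 and 3.79 in adult samples 1, 4 and 10, 2.22, 2.20, 2.45 and 2.25 in P-ERK1/2 Low samples 3, 6, 9 and 12, and 4.43, 19.1, 12.3 and 8.29 in P-ERK1/2 High samples 2, 5, 7 and 8. The 3 groups did not overlap, with P-ERK1/2 Low lowest, adult between and P-ERK1/2 High highest, and the ratio was 4.23 times as high in P-ERK1/2 High as in P-ERK1/2 Low. P-ERK1/2 High sample 2, with the highest *C5ar1*, lay nearest to adult, and sample 5, with the highest *C3ar1*, lay farthest from it. Adult sample 11 had a ratio of 19.4. The ratio of *Itgam* to *C1qa* was 0.325 to 0.343 for adult, 0.408 to 0.524 for P-ERK1/2 Low and 0.714 to 1.00 for P-ERK1/2 High, again without overlap, and 1.20 in adult sample 11. These ratios depend on no scaling by one factor per sample, and the shares of gene pairs that separated the groups, given for the C1q chains, are the measure they stand against. The ratio of *C3* to *C3ar1* was 0.0265 to 0.0322 in adult and 0.0015 to 0.0185 over the aged samples, in most of which *C3* itself was near background.

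The sequences before the transcription start of the 3 receptor genes that were called are shown for reference, each of 250 bases, from RefSeq on GRCm38.p6, 5′ to 3′ on the strand of the gene. Capitals mark matches on either strand to the letters TGANTCA, the core of the AP-1 motif bound by Fos and Jun factors that act downstream of ERK, and GAGGAA, the core of the motif of the myeloid factor PU.1. In the *C3ar1* sequence (chr6:122856158-122856407, minus strand) TGACTCA begins 22 bases before the start, in the *C5ar1* sequence (chr7:16259339-16259588, minus strand) neither is found, and in the *Itgam* sequence (chr7:128062390-128062639, plus strand) PU.1 letters begin 84 and 15 bases before the start.
C3ar1: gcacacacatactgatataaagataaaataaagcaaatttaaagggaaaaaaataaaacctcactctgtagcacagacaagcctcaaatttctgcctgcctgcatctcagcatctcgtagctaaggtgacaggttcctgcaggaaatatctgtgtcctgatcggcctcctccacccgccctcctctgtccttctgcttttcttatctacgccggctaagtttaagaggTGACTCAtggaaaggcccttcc
C5ar1: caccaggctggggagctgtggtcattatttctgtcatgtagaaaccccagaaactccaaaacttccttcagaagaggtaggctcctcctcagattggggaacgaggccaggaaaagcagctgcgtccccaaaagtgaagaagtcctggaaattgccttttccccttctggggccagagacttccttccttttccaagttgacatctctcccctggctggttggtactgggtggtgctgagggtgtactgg
Itgam: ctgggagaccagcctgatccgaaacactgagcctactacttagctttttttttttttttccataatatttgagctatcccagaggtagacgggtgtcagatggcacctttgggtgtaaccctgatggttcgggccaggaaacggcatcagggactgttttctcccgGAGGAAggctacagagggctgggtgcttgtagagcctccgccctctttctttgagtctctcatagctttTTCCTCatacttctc
Of all 32851 promoter windows of this length, 6.75% hold the AP-1 letters and 23.3% the PU.1 letters. The E-box CACGTG (6.02% of all windows) was found before none of the 7 complement genes with a sequence, and the C/EBP letters TTGCNNAA (9.56%) before *C3*. PU.1 letters were also found before *C1qb* and *C1qc*. A match is a description of letters and not of binding, which was not measured.

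For *C1qa*, *C1qb*, *C3ar1*, *C5ar1* and *Itgam*, the spread among samples was widest in P-ERK1/2 High. Sample 5 had the highest value of *C1qa*, *C1qb*, *C1qc*, *C3ar1* and *Itgam* in the group and was also the most deeply counted (1539936 counts), and sample 7 had the lowest *C3ar1* and *C5ar1*. In *C1qb*, the P-ERK1/2 High samples had a coefficient of variation of 35.4%, against 4.97% in P-ERK1/2 Low and 8.01% in adult, and in *C5ar1* these were 52.1%, 8.29% and 9.08%. *C1qc* varied alike in both aged groups, at 10.4% and 10.7%.

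Over the 11 samples, the genes whose log2 values ran most like *C3ar1* were *Clec7a*, encoding the beta-glucan receptor dectin-1 (Pearson r = 0.981), and *Fcer1g*, encoding an Fc receptor adaptor (r = 0.979). For *C5ar1* they were *Ptx3*, encoding a pentraxin that binds C1q (r = 0.981), and *Dab2*, encoding an endocytic adaptor (r = 0.979). *Itgam* ran most like *Ppp3r1*, the calcineurin B subunit (r = 0.997), and *Vps4b*, of the endosomal sorting machinery (r = 0.993), and *C1qb* most like *Osmr*, the oncostatin M receptor (r = 0.975). These values describe 11 samples in 3 groups that share the scaling and the differences in depth, and the separation of the groups contributes to each of them.

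A list of 10 genes whose products act with complement was followed beside them: the inhibitor gene *Serping1*, the complement receptor 4 chain *Itgax*, the C1q-binding *Ptx3* and *Calr*, the adaptor and kinase genes *Tyrobp*, *Fcer1g* and *Syk*, and *Gna15*, *Pik3cg* and *Pik3r5* of the signalling below C5aR1 and other G protein-coupled receptors. From P-ERK1/2 Low to High, 1 of 10 was called higher and 3 lower, from adult to P-ERK1/2 Low 2 higher and 1 lower, and from adult to P-ERK1/2 High 1 higher and 1 lower. Over all genes these shares were 28.2% and 9.61%, 8.05% and 2.73%, and 29.2% and 7.66%. The median log2 fold changes of this list were -0.53, 0.50 and 0.04, beside 0.26, 0.10 and 0.35 over all genes and 0.31, 0.10 and 0.14 over the 9 complement genes. In each of the 3 comparisons 5 of the 10 had an adjusted p under 0.05 in limma, beside 52.2%, 26.1% and 48.2% of all genes.

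*Ptx3* had the largest change of the list. It had 65.8, 79.2 and 84.0 in adult samples 1, 4 and 10, 535, 557, 514 and 763 in P-ERK1/2 Low samples 3, 6, 9 and 12, and 174, 52.9, 22.5 and 128 in P-ERK1/2 High samples 2, 5, 7 and 8. As with *C5ar1*, P-ERK1/2 Low stood above all other samples, with a log2 fold change of 2.93 ± 0.18 from adult to P-ERK1/2 Low (limma, adjusted p = 0.00018) and an 8.01-fold lower level in P-ERK1/2 High than in Low (limma, adjusted p = 0.00056). The rise from adult to P-ERK1/2 Low was called with adult sample 11 included (4.25, limma adjusted p = 0.14) and after background subtraction (5.73, limma adjusted p = 0.045), at larger and less certain values. It was not above background in 1 P-ERK1/2 High and 1 adult sample, and the call between P-ERK1/2 High and Low was lost after background subtraction, with a larger and less certain log2 fold change of -4.31 (limma, adjusted p = 0.055), and with the positive controls alone (-1.02).

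*Tyrobp*, encoding the adaptor DAP12 that signals for TREM2 and other receptors, had 8416, 8197, 7889 and 11010 in P-ERK1/2 Low against 4503, 4954, 3085 and 4783 in P-ERK1/2 High, a log2 fold change of -1.05 ± 0.23 (limma, adjusted p = 0.0029). *Calr*, encoding calreticulin, a chaperone that binds the collagen tails of C1q, had 6390, 7306, 6214 and 7195 in P-ERK1/2 Low against 4318, 2352, 3209 and 3665 in P-ERK1/2 High, a log2 fold change of -1.03 ± 0.23 (limma, adjusted p = 0.0032). For both genes the groups did not overlap. With the 6 most stable housekeeping genes the log2 fold changes were -0.50 for *Tyrobp* (limma, adjusted p = 0.10) and -0.49 for *Calr* (limma, adjusted p = 0.093), and neither was called. Of single samples, *Tyrobp* was not called without P-ERK1/2 High sample 7 (-0.89) or P-ERK1/2 Low sample 12 (-0.94), and *Calr* was not called without P-ERK1/2 High sample 5 (-0.87) or P-ERK1/2 Low sample 6 (-0.99). With scaling by the positive control probes alone, their log2 fold changes were 0.94 and 0.96, below the median of 2.14 over all genes.

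*Pik3cg*, encoding the catalytic subunit of the phosphoinositide 3-kinase of G protein-coupled receptors, had 84.0, 90.8 and 93.9 in adult, 112, 130, 112 and 139 in P-ERK1/2 Low and 307, 662, 272 and 479 in P-ERK1/2 High. The P-ERK1/2 High samples were highest, with log2 fold changes of 1.71 ± 0.29 against P-ERK1/2 Low (limma, adjusted p = 0.00050) and 2.16 ± 0.33 against adult (limma, adjusted p = 0.00039). *Itgax*, encoding the CD11c chain of complement receptor 4, had 99.8, 171 and 143 in adult and 369, 354, 308 and 423 in P-ERK1/2 Low, a log2 fold change of 1.41 ± 0.21 (limma, adjusted p = 0.0029). The P-ERK1/2 High samples, with 134 to 394, overlapped both groups and were not called against either. The *Itgax* call was lost after background subtraction (2.84, limma adjusted p = 0.21) and with the positive controls alone (0.59, limma adjusted p = 0.18). *Gna15*, encoding a G protein alpha subunit that couples chemoattractant receptors, had 184, 186 and 237 in adult and fell by 1.13 on the log2 scale in P-ERK1/2 Low (limma, adjusted p = 0.0028) and by 1.64 in P-ERK1/2 High (limma, adjusted p = 0.0046). In P-ERK1/2 Low it was above background in 1 of 4 samples. *Serping1*, encoding the C1 inhibitor, was above background in 4 of 4 P-ERK1/2 High samples and in no P-ERK1/2 Low sample. It was above background in none of adult samples 1, 4 and 10, though it was in adult sample 11 (42.7). The normalized means were 49.2 ± 5.54 in P-ERK1/2 High, 58.3 ± 12.3 in P-ERK1/2 Low and 39.9 ± 9.83 in adult (SD, n = 4, 4 and 3), so the level did not follow the detection. With adult sample 11 included, the calls against adult of *Itgax* (1.02), *Gna15* (-0.61 and -1.12) and *Pik3cg* (1.34) were lost. With the same summed signal, *Pik3cg* in P-ERK1/2 High was called neither against P-ERK1/2 Low (0.68) nor against adult (0.75). After background subtraction *Pik3cg* (5.00) and *Gna15* (-2.18) were not called between P-ERK1/2 High and adult, nor was *Gna15* with the 6 most stable housekeeping genes (-1.09) or the positive controls alone (-0.47), and with a pseudocount of 20 *Gna15* was not called from adult to P-ERK1/2 Low (-0.99).

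Markers of other cells differed between the groups, beside the 28.2% of all genes called higher in P-ERK1/2 High than in Low. The summed value of 7 astrocyte markers was 494 to 693 for adult, 610 to 849 for P-ERK1/2 Low and 1442 to 2164 for P-ERK1/2 High, and 3 of 7 were called higher in P-ERK1/2 High than in Low. Of the 7, 4 were above background in all P-ERK1/2 High samples (*Aldh1l1*, *Gja1*, *Kcnj10* and *Sox9*), *S100b* and *Slc1a3* were in 3 of 4 and *Agt* in none. For 5 endothelial markers the sums were, in the same order, 247 to 376, 161 to 287 and 582 to 1130, and 4 of 5 were called higher in P-ERK1/2 High than in Low. For 8 T and NK cell markers they were 123 to 284, 139 to 193 and 275 to 1084, with 2 of 8 called higher. Adult sample 11, left out, had sums of 2187 for astrocyte, 731 for endothelial and 750 for T and NK cell markers, within or above the range of P-ERK1/2 High. Neutrophils and monocytes also express *Itgam* and *C5ar1*, and the sum of their 7 markers was 728 to 1132, 447 to 536 and 359 to 958. That sum was 271 in adult sample 11, below all other samples. Of the 8 microglial markers, 4 were called higher in P-ERK1/2 High than in Low (*P2ry12*, *Tmem119*, *Sall1* and *Gpr34*). In P-ERK1/2 Low, *P2ry12* and *Gpr34* were above background in 0 of 4 samples and *Tmem119* and *Sall1* in 1 of 4. *Csf1r* was lower in P-ERK1/2 High without overlap (mean 1553 against 2745, log2 fold change -0.84, limma adjusted p = 0.0059), short of the fold limit. The sums of the 8, to which *Csf1r* contributed most, were 3487 to 3801, 3371 to 3692 and 2851 to 3544. Against adult, 3 of the 8 were called lower in P-ERK1/2 Low (*Fcrls* at a log2 fold change of -2.31, *Olfml3* at -1.56 and *Tmem119* at -1.03), beside 2.73% of all genes. In P-ERK1/2 High, *Fcrls* (-1.57) and *Olfml3* (-1.65) were called lower than in adult and *P2ry12* (1.00) higher, beside 7.66% and 29.2% of all genes. Border macrophages are another source of complement transcripts, and the sum of their 3 markers was 120 to 145, 125 to 147 and 147 to 194, with *Cd163* called higher in P-ERK1/2 High than in Low and *Ms4a4a* above background in none of the 11 samples. *Ly6g*, the neutrophil marker removed by the gate, was also above background in none. The sums were 312 to 492, 320 to 452 and 267 to 408 for 8 oligodendrocyte markers, 246 to 374, 268 to 349 and 339 to 513 for 10 neuronal markers, and 59.4 to 143, 94.7 to 147 and 146 to 321 for 4 B cell markers. The part of other cells, of depth and of RNA quality in the differences of the complement genes was not tested.

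The size of most of these differences changed with the scaling or other treatment of the values. Median-of-ratios scaling, scaling by the 6 housekeeping genes most stable to each other, quantile normalization, a common summed signal, background subtraction and scaling by the positive controls alone moved the median difference over the whole panel between P-ERK1/2 High and Low from 0.26 on the log2 scale to -0.01, 0.80, -0.11, -0.76, 1.34 and 2.14. Background subtraction is not a scaling: values that fell below 1 were set to 1. P-ERK1/2 Low had 410 to 484 genes above background against 589 to 673 in P-ERK1/2 High, so more of its values were set to 1. Scaling by the positive controls uses no gene counts, so the difference in summed counts (650965 to 1539936 against 123798 to 157209) stays in its fold changes. Genes called higher and lower, 217 and 74 as deposited, became 175 and 123, 310 and 8, 150 and 141, 59 and 311, 268 and 26, and 658 and 0 in the same order. For P-ERK1/2 Low against adult, 62 and 21 became 49 and 27 with median-of-ratios scaling, 47 and 32 with quantile normalization, 24 and 59 with the same summed signal, 39 and 33 after background subtraction and 8 and 213 with the positive controls alone. For P-ERK1/2 High against adult, 225 and 59 became, in the order given for P-ERK1/2 High and Low, 160 and 120, 340 and 8, 142 and 138, 40 and 361, 204 and 11, and 420 and 1.

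In the comparisons of P-ERK1/2 High, the complement genes called changed with the direction of the whole panel. From adult to P-ERK1/2 Low, *C5ar1* stayed the only one called, as higher, in all of these settings but the positive controls alone. With the same summed signal, *C1qa*, *C1qc*, *C3*, *C4a* and *C6* were called lower in P-ERK1/2 High than in adult and no complement gene higher, and *C4a* and *C6* were at or near background. With quantile normalization 1 gene, *C3*, was called lower in that comparison and none higher. With the positive controls alone, all complement genes but *C5ar1* were called higher in P-ERK1/2 High than in Low, and *C1qa* and *C3* lower in P-ERK1/2 Low than in adult. *C1qa*, *C1qb* and *C1qc*, near the panel median of 0.26 from P-ERK1/2 Low to High in the deposited values (0.31, 0.36 and 0.28), moved with it under the 5 scalings, though not after background subtraction (0.37, 0.39 and 0.32), and had log2 fold changes of -0.24, -0.029 and -0.27 after quantile normalization and of 2.30, 2.35 and 2.27 with the positive controls alone. The differences of *C3ar1* and of *C5ar1* from adult to P-ERK1/2 Low kept their direction in all 6 of these settings, with the smallest values at 0.13 and 0.73 with the positive controls alone.

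**Figure D4:**
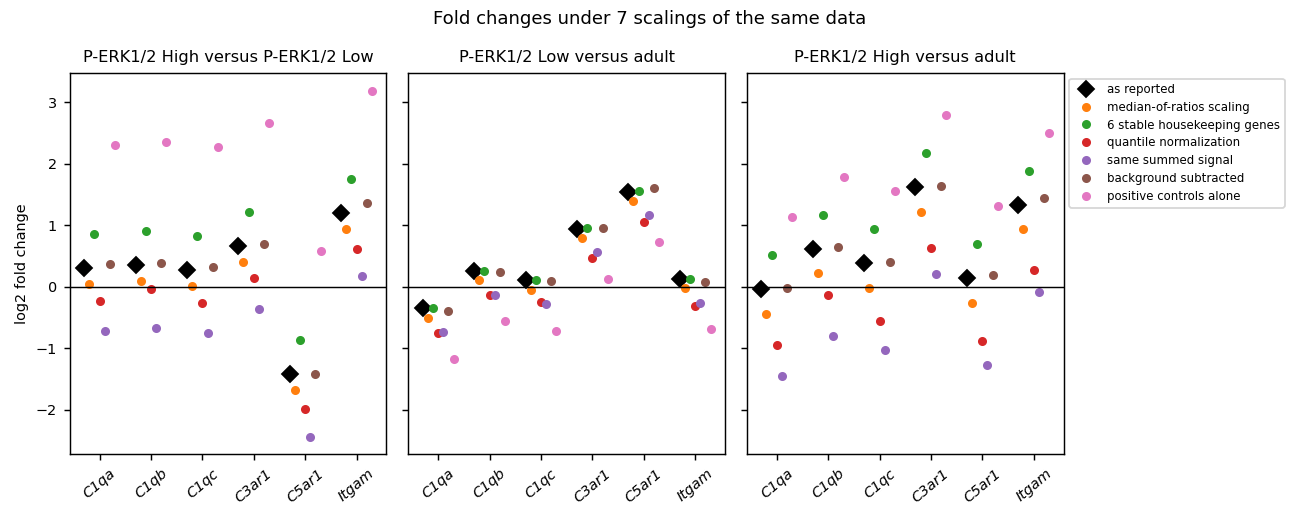
Log2 fold change of 6 complement genes in the 3 comparisons, with the deposited scaling (black diamonds) and 6 other treatments of the same data (coloured circles). The C1q genes cross 0 between treatments in every comparison except for *C1qa* from adult to P-ERK1/2 Low, while *C3ar1* and *C5ar1* stay above 0 from adult to P-ERK1/2 Low.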

How the data were processed

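Transcripts of sorted microglia were counted on the nCounter Neuroinflammation panel in 12 samples. The authors normalized the counts in nSolver (version not given in the sources used here). The deposited signal values are raw counts multiplied by 1 factor per sample, with which 13 housekeeping genes share a geometric mean of 173, without background subtraction. Division by the smallest step gave back counts, of which 99.8% were whole to within 0.1, and these served for depth and background. Groups and sample numbers were taken from the titles, since the label for the sample type reads aged for all 12. Whether P-ERK1/2 High and Low samples came from the same mice is not stated.

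Each comparison was fitted on its 2 groups over 770 genes, on log2(value + 1) with no filter, using limma 3.58.1 and R 4.3.3. Fold changes on that scale understate the change of low genes. The fit was tested on simulated data. Named genes were the 9 complement genes, the 10 related genes, cell type markers and, for each complement gene, the 2 genes most correlated with it. Members and lists were chosen with earlier results of these data known. RefSeq (GRCm38.p6) held promoter sequences of 7 of the 9 genes (not *C1qa* and *C4a*). Alternatives were other scalings, pseudocounts of 0.1 and 20, a filter at a mean value of 50, a common spread, other thresholds, all 4 adult samples and leaving out each sample, and, chosen after seeing the data, background subtraction and the positive controls alone. Values below 1 after background subtraction were set to 1.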

Additional observations from a re-analysis of the deposited data

Results flagged for a closer look

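Of 32 sets of values in groups of 4 samples, 2 held a sample that stood apart from the other 3 by Dixon's criterion at its 95% critical value, where chance gives about 1 in 20. Both were P-ERK1/2 High sample 7. Its log2 ratio of *C1qb* to *C1qa* was 0.57, against 1.26 to 1.30 in samples 2, 5 and 8 (gap over range 0.949). Its log2 ratio of *C3* to *C3ar1* was -5.76, against -8.12 to -7.78 (gap over range 0.854).

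Adult sample 11, marked for poor quality in the labels and left out of the comparisons, exceeded all other adult samples in each of the 6 complement genes above background throughout. *C1qa* was 3134 (2160 to 2407 in adult samples 1, 4 and 10), *C1qb* 8836 (2859 to 3340) and *C1qc* 3887 (2611 to 2795). *C3ar1* was 16981 (2370 to 3224), *C5ar1* 874 (709 to 850) and *Itgam* 3771 (701 to 818). The values of *C1qa*, *C1qb*, *C3ar1* and *Itgam* were also above every P-ERK1/2 High sample. Its summed count was 1464433 and the geometric mean of its positive control probes 286, against 954 to 1460 in the other 11 samples.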

How the results depend on the processing

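No paired analysis was possible because the groups share no sample number. The planned tests on counts were not run, since the control rows of the deposited table are not on the scale of the genes. Depth limits *C3*, *C4a* and *C6*, and a single factor per sample limits every fold between groups whose summed signal differs.

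The number of complement genes called between P-ERK1/2 High and Low (2) became 1 with median-of-ratios scaling, quantile normalization or background subtraction, 2 with 6 stable housekeeping genes (*C3ar1* and *Itgam*) or the same summed signal (*C5ar1* and *C6*, lower), and 8 with the positive controls alone, and 1 to 2 when leaving out single samples. For P-ERK1/2 Low against adult (1) it was 2 with the positive controls alone (both lower, without *C5ar1*), 2 at adjusted p under 0.05 with no fold limit, and 1 to 2 without single samples (2 without adult sample 10, where *C3ar1* was called at 1.07). For P-ERK1/2 High against adult (2) it was 1 with median-of-ratios scaling (*C3ar1*), 1 with quantile normalization (*C3*, lower), 3 with 6 stable housekeeping genes (*C1qb*, *C3ar1* and *Itgam*), 4 with the positive controls alone (these 3 and *C1qc*), 5 with the same summed signal (all lower, without *C3ar1* and *Itgam*), 0 with all 4 adult samples and 2 to 2 without single samples. All genes called (291, 83 and 284) were 658 and 221 with the positive controls alone (first 2 comparisons), 201 for P-ERK1/2 Low against adult at adjusted p under 0.05 with no fold limit, and 34 and 49 with all 4 adult samples, and ranged over 235 to 310, 75 to 95 and 225 to 303 without single samples.

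With all 4 adult samples, some log2 ratio differences moved by at least the pooled SD of the groups compared. From adult to P-ERK1/2 Low these became 0.34 for *C1qb*/*C1qa*, -1.23 for *C3ar1*/*C5ar1* and 0.017 for *Itgam*/*C1qa*. From adult to P-ERK1/2 High they became 0.91 for *Itgam*/*C1qa* and -1.41 for *C3*/*C3ar1*. The other ratio differences from adult moved by less than that SD and are not printed. The adult C1q share was 2.12%. *C3ar1* (0.96) and *Itgam* (0.76) were then not called in P-ERK1/2 High against adult.

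Log2 fold changes turned direction as follows, and the cause was not tested. Between P-ERK1/2 High and Low, *C1qa*, *C1qb* and *C1qc* were -0.24, -0.029 and -0.27 with quantile normalization and -0.71, -0.66 and -0.75 with the same summed signal, where *C3* was -0.40 and *C3ar1* -0.36. With the positive controls alone *C5ar1* was 0.58, *Calr* 0.96 and *Tyrobp* 0.94, and *C3* ranged over -0.0062 to 1.04 without single samples (lowest without P-ERK1/2 Low sample 12). From adult to P-ERK1/2 Low, *C1qc* and *Itgam* were -0.045 and -0.024 with median-of-ratios scaling, and *C1qb*, *C1qc* and *Itgam* were -0.13, -0.24 and -0.31 with quantile normalization, -0.13, -0.28 and -0.26 with the same summed signal, -0.56, -0.71 and -0.69 with the positive controls alone and -0.12, -0.024 and -0.44 with all 4 adult samples. From adult to P-ERK1/2 High, *C1qc* and *C5ar1* were -0.013 and -0.26 with median-of-ratios scaling, *C1qa* 0.51 with 6 stable housekeeping genes, *C1qb*, *C1qc* and *C5ar1* -0.13, -0.55 and -0.89 with quantile normalization, and *C1qb*, *C1qc*, *C5ar1* and *Itgam* -0.80, -1.03, -1.28 and -0.081 with the same summed signal. *C3* was 0.16 after background subtraction and 0.45 with the positive controls alone, *C1qa* 1.13 with the positive controls alone, and without single samples *C1qa* ranged over -0.19 to 0.14 and *C5ar1* over -0.15 to 0.52.

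*C3ar1* in P-ERK1/2 High against adult was not called with quantile normalization (0.64) or the same summed signal (0.20), and *C5ar1* from adult to P-ERK1/2 Low was not called with the positive controls alone (0.73). *C5ar1* between P-ERK1/2 High and Low was not called with 6 stable housekeeping genes (-0.87), where *C3ar1* was called (1.22).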
